A study of Mus musculus with 6 samples.

Results

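Transcripts of 9 genes of bile ducts and liver progenitors were followed at postnatal day 19 in the liver of mice with the genotypes p62+/+ and p62S351E/+. The genes were chosen by name among the 24411 gene symbols of the count table. They comprised 7 markers of cholangiocytes and of the ductular reaction (Krt7, Krt19, Epcam, Sox9, Spp1, Prom1 and Anxa2) and, for contrast, the 2 keratin genes that hepatocytes also use, Krt8 and Krt18. All 9 were present in the table. Each group held 3 mice. The p62+/+ mice were wild type at Sqstm1, the gene of p62. The p62S351E/+ mice carried a knock-in allele, in the heterozygous state, whose Ser351 codon encodes Glu and which mimics phosphorylation of the KEAP1-binding region. The line came from prime-edited C57BL/6N embryonic stem cells through a single male chimera, so that all p62S351E/+ mice descend from the same founder. The study compared the livers to learn what this allele does in vivo.

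Cholangiocytes line the bile ducts and derive, like hepatocytes, from fetal hepatoblasts. Keratins form obligate pairs of a type II and a type I chain. Hepatocytes use keratin 8 with keratin 18, while cholangiocytes add keratin 7 and keratin 19. In liver injury, ductular cells that express SOX9, EPCAM, CD133 (the product of Prom1) and osteopontin (the product of Spp1) can expand, which is called a ductular reaction. KEAP1 and NRF2, on which the p62 allele acts, form a stress response pathway of hepatocytes and cholangiocytes alike.

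The libraries were deep in total but shallow for messenger RNA. Between 8696712 and 10341622 estimated counts were present per library, of which between 134911 and 315436 lay outside the abundant transcripts Rn45s, Lars2 and Mir6236. Normalized counts below are raw counts divided by the library size times its TMM factor, taken relative to the geometric mean over the libraries. A gene was called at an adjusted p (Benjamini-Hochberg, edgeR's quasi-likelihood test) under 0.05 with an absolute log2 fold change above 1. The summed normalized counts of 8 hepatocyte markers lay between 9708 and 10670 in the p62+/+ mice and between 10896 and 23296 in the p62S351E/+ mice. Of these markers 7 were present in every library, while Ass1 was at 0 in 3 libraries and had counts that were not whole numbers. Alb made up most of the sum. It had 5728 to 6452 normalized counts in the p62+/+ mice and 9713, 16390 and 6542 in p62S351E/+ mice 1, 2 and 3. The geometric mean of the 7 markers without Ass1 was 642 to 687 in the p62+/+ mice and 683 to 1326 in the p62S351E/+ mice, which overlapped. Transcripts of 10 brain genes summed to between 1995 and 2105 normalized counts in the p62+/+ mice and 1924 in p62S351E/+ mouse 3, but to 38.1 and 40.3 in p62S351E/+ mice 1 and 2. Xist, a transcript of females, lay between 56.8 and 1168 normalized counts in the p62+/+ mice. It had 1.90, 0 and 1191 normalized counts in p62S351E/+ mice 1, 2 and 3. The part of both in the comparisons below was tested only as far as the covariate fits given there. Because whole liver was sequenced, fewer cells of a type and less RNA per cell cannot be told apart.

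The genes that define bile ducts most strictly were at or near the detection limit in both genotypes. Only Spp1, Krt8 and Krt18 of the 9 genes passed the filter on low counts. By edgeR 0 of these 3 were called in either direction, against 0.841% of the 5945 genes tested that were called higher and 0.0841% that were called lower in the p62S351E/+ mice. At an unadjusted p under 0.05 the same test took in 2 of them on the higher side, Krt8 and Krt18, and 0 on the lower, against 9.02% and 5.55% of all genes tested. DESeq2 called 0 of the 9 genes, of which 4 had an adjusted p, against 1.02% higher and 0.124% lower of the 6475 genes with one. With limma-voom 1 was called higher, Krt18, and 0 lower, against 2.05% and 0.219% of all genes tested. Where all 6 libraries had to reach 10 counts, edgeR called Krt18 higher and 0 members lower, against 2.99% and 1.24% of the 2343 genes left. The counts of all 9 genes were whole numbers in all 6 libraries, so no fractional division of their reads with paralogs or pseudogenes was visible.

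**Figure D1:**
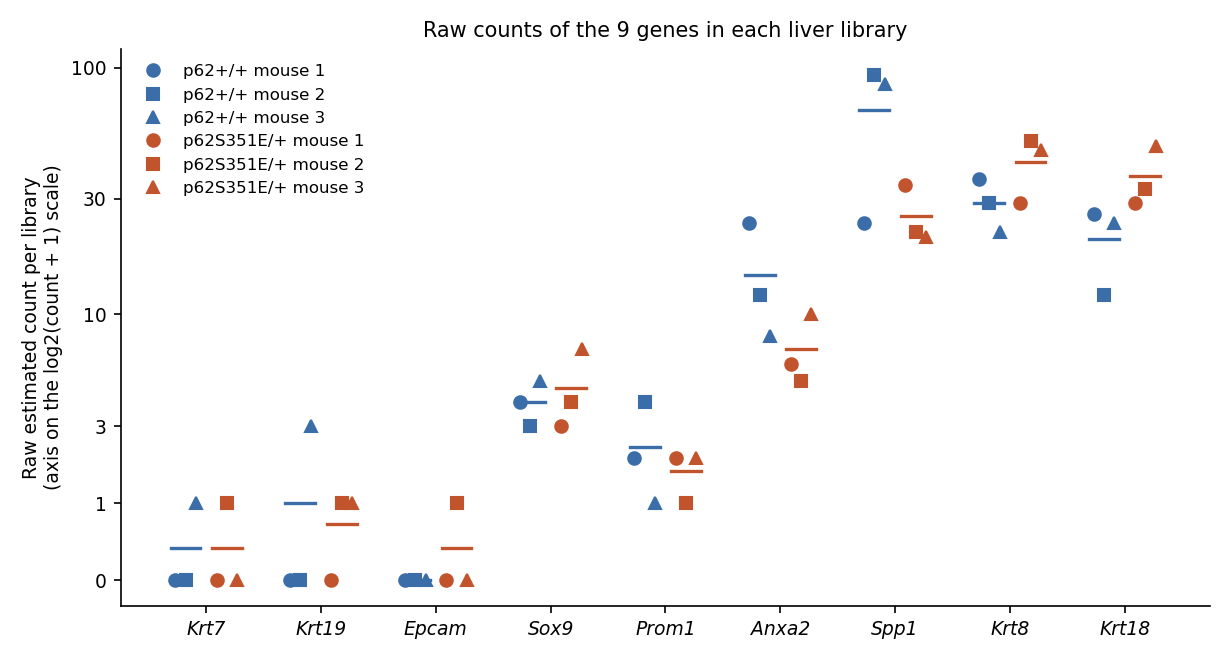
Raw estimated counts of the 9 genes, with the axis on the log2(count + 1) scale. Each symbol is a library, and the horizontal lines are group means of 3 mice. Krt7, Krt19 and Epcam lie between 0 and 3 counts, while Spp1, Krt8 and Krt18 lie between 12 and 94 counts.

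Krt8 and Krt18, the keratin pair of hepatocytes, had more normalized counts in every p62S351E/+ mouse than in any p62+/+ mouse. Krt8, which encodes the type II chain, lies on chromosome 15 of GRCm38 (mm10) from 101996698 to 102004482. In p62+/+ mice 1, 2 and 3 it had 36, 29 and 22 raw counts, and in p62S351E/+ mice 1, 2 and 3 it had 29, 51 and 47. After scaling these were 28.9, 22.5 and 19 normalized counts in the p62+/+ mice and 55.2, 64.3 and 36.4 in the p62S351E/+ mice. The scaled groups did not overlap, although the raw counts did. The p62S351E/+ mouse with brain transcripts, mouse 3, lay closest to the p62+/+ mice. The mean was 23.5 ± 5.01 normalized counts (SD, n = 3) in the p62+/+ mice and 52.0 ± 14.2 (SD, n = 3) in the p62S351E/+ mice. Krt8 had a log2 fold change of 1.14 with a standard error of 0.29 (adjusted p = 0.133, edgeR), so it did not pass the threshold.

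Krt18, which encodes the type I partner, lies on the same chromosome from 102028180 to 102032027. Its raw counts were 26, 12 and 24 in the p62+/+ mice and 29, 33 and 49 in the p62S351E/+ mice. The normalized counts were 20.9, 9.32 and 20.7 against 55.2, 41.6 and 38.0. All 3 p62S351E/+ mice were again above all p62+/+ mice, in raw as in scaled counts. The means were 17.0 ± 6.63 and 44.9 ± 9.10 normalized counts (SD, n = 3 each). Krt18 had a log2 fold change of 1.39 with a standard error of 0.34 (adjusted p = 0.123, edgeR), which also missed the threshold. Groups that did not overlap were found on the higher side for 12.0% of all genes tested and on the lower side for 14.7%, and an unadjusted p under 0.05 on the higher side for 9.02%.

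The genes of the keratin pair are neighbours. They are transcribed away from each other, Krt8 on the minus and Krt18 on the plus strand, with 23697 bases between them in the GENCODE M21 annotation. The promoters of these genes and of Spp1, the 3 genes with enough counts to test, are printed here from RefSeq (GRCm38.p6) on the strand of the gene, as windows of 300 bases around the annotated start that lie mostly upstream of it. Capitals mark every match on either strand to the antioxidant response element bound by NRF2 (TGACNNNGC), the AP-1 element (TGANTCA), the TATA box (TATAAA), the RBPJ element of Notch signalling (TGGGAA) and the TEAD element of YAP signalling (GGAATG).
Krt8, chr15:102004293-102004592, minus strand: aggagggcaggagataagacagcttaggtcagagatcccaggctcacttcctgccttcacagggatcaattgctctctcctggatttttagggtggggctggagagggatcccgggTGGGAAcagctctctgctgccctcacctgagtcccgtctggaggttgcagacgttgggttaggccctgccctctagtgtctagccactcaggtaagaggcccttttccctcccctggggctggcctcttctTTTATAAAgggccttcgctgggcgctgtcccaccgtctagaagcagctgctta
Krt18, chr15:102027966-102028265, plus strand: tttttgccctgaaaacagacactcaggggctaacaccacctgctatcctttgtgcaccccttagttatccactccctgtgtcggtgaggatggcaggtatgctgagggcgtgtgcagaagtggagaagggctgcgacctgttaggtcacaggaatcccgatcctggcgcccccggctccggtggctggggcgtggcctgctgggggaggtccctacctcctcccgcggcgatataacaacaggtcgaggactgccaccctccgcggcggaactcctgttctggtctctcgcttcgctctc
Spp1, chr5:104434861-104435160, plus strand: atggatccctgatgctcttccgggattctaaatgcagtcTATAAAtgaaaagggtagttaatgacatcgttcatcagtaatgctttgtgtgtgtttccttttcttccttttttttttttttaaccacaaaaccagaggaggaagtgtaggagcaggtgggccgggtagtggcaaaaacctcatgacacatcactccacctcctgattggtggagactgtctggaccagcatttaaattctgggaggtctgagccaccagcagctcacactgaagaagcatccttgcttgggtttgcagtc
The window of Krt8 held 1 RBPJ match, at position -134 from the annotated start, and 2 overlapping TATA matches, at -3 and -1. That of Spp1 held 1 TATA match at -211, and that of Krt18 held none of the 5 elements. A second annotated start of Spp1 likewise held none. Among the other genes with a window in this table, Krt7 and Epcam held no match. Anxa2 held an AP-1 match at -95, an RBPJ match at -78 and a TATA match at -17. The window at the upstream of the Prom1 starts (chromosome 5 from 44101687) held an AP-1 match at -88 and an RBPJ match at -116, and the other an AP-1 match at -189 and an antioxidant response element match at -79. Of all 32851 promoter windows, 12.4% held an antioxidant response element match, 7.81% an AP-1 match, 13.6% a TATA match, 25.6% an RBPJ match and 14.7% a TEAD match. Positions are counted from the RefSeq start. The GENCODE spans of Krt8 and Prom1 begin further upstream, at 102004482 and 44102032, so the matches of these genes lie within those spans.

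The balance between the chains was compared within each library. Per base of exon, Krt8 amounted to 1.02, 1.77 and 0.673 times Krt18 in the p62+/+ mice, compared with 0.734, 1.13 and 0.704 times in the p62S351E/+ mice. The groups overlapped, with means of 1.15 ± 0.563 and 0.857 ± 0.240 (SD, n = 3 each; exact two-sided permutation test, p = 0.7). With 3 mice against 3 this test cannot go below 0.1.

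The calls on the keratin pair depended on which libraries entered the test. Without p62S351E/+ mouse 3, Krt8 (log2 fold change 1.34, adjusted p = 0.0034, edgeR) and Krt18 (1.50, adjusted p = 0.00919, edgeR) were both called higher. In that fit 333 of all genes tested (5.21%) were called higher and 975 (15.3%) lower. With only p62S351E/+ mouse 3 against the p62+/+ mice, all libraries with brain transcripts, the log2 fold changes were 0.64 for Krt8 (adjusted p = 0.557, edgeR) and 1.18 for Krt18 (adjusted p = 0.129, edgeR), where this lone mouse is assumed to vary like the p62+/+ mice. With the brain-gene level as a covariate, the values were 0.62 (adjusted p = 0.837, edgeR) and 1.15 (adjusted p = 0.593, edgeR). With Xist as a covariate they were 0.73 (adjusted p = 0.459, edgeR) and 1.19 (adjusted p = 0.364, edgeR).

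Hepatocyte markers were compared with the pair, since Krt8 and Krt18 are transcripts of hepatocytes. Of the 8 hepatocyte markers, all of which passed the filter, 0 were called, 6 had a log2 fold change above 0, and the median was 0.43 against -0.03 over all genes tested. With library size as the only scaling, 4 of the 8 were above 0 and the median was -0.24, against -0.68 over all genes. Alb, the albumin gene, had a log2 fold change of 0.83 (adjusted p = 0.319, edgeR), and Cps1, the entry enzyme of the urea cycle, 0.94 (adjusted p = 0.133, edgeR). The groups did not overlap for either gene. On the higher side this held for 3 of the 8 markers, against 12.0% of all genes tested. On the lower side it held for 0, against 14.7%. Relative to the geometric mean of 7 hepatocyte markers (the list without Ass1), Krt8 amounted to 0.0420, 0.0351 and 0.0281 in the p62+/+ mice, compared with 0.0675, 0.0484 and 0.0533 in the p62S351E/+ mice. The groups still did not overlap (exact two-sided permutation test, p = 0.1, the smallest possible with n = 3 each). Krt18 amounted to 0.0304, 0.0145 and 0.0307 in the p62+/+ mice, compared with 0.0675, 0.0313 and 0.0556 in the p62S351E/+ mice, with p62S351E/+ mouse 2 just above the p62+/+ range (exact permutation p = 0.1, n = 3 each). The edgeR fit was also scaled to these markers, a choice made after the values had been seen. The log2 fold changes were then 0.68 for Krt8 (adjusted p = 0.467, edgeR) and 1.01 for Krt18 (adjusted p = 0.438, edgeR). The median of all genes under that scaling was -0.43, and Krt8 and Krt18 lay 1.10 and 1.44 above it. Under the main scaling they lay 1.17 and 1.42 above the median of that fit. A new scaling shifts all genes nearly alike, so these differences are no separate support for a rise.

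**Figure D2:**
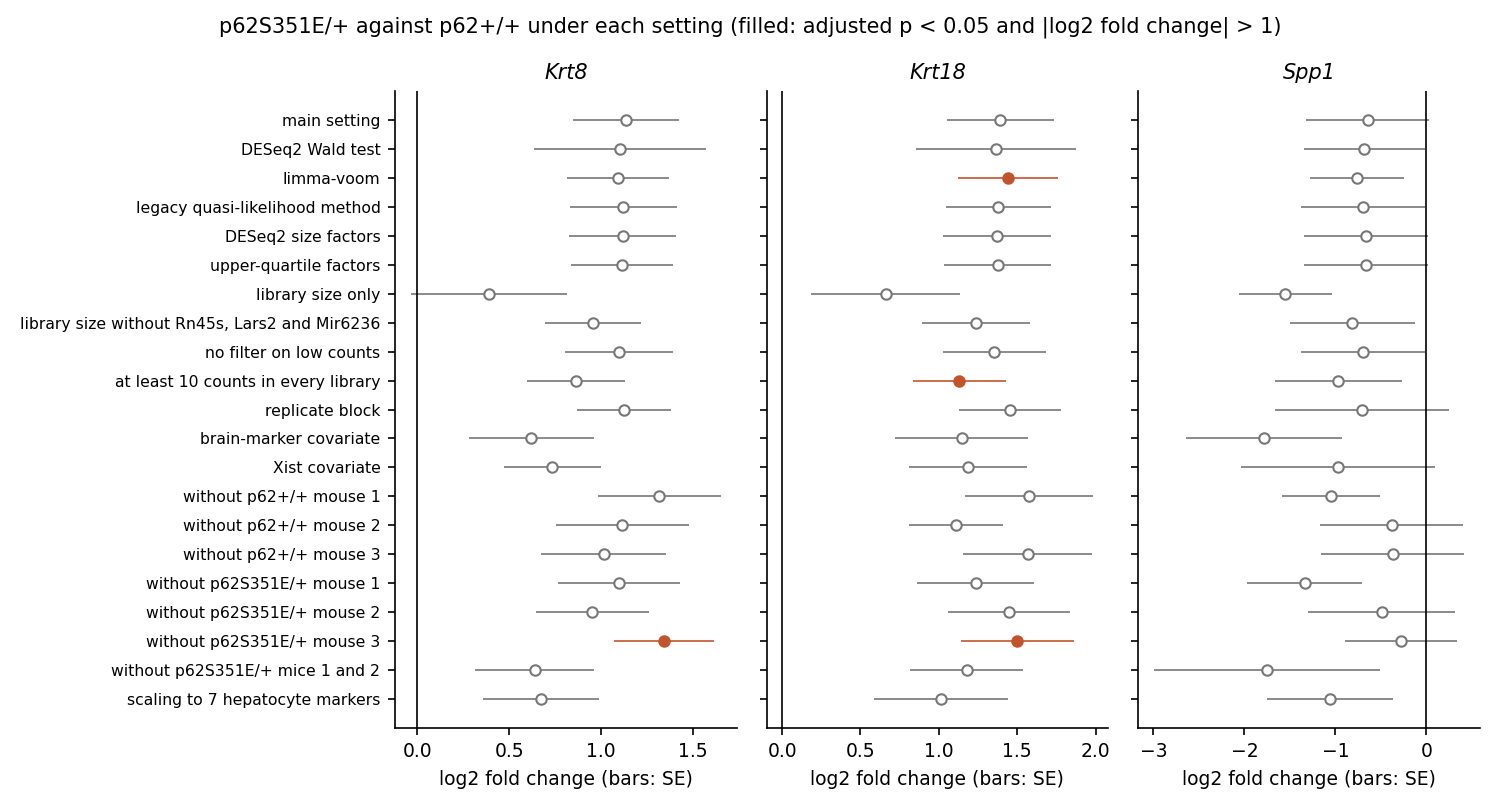
Log2 fold changes of Krt8, Krt18 and Spp1 (p62S351E/+ against p62+/+) with standard errors under the main setting and each alternative. Filled symbols pass the threshold. Krt8 lies between 0.39 and 1.34 and Krt18 between 0.66 and 1.57 over the alternatives, always above 0, while Spp1 lies between -1.79 and -0.28.

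The keratins that set bile ducts apart from hepatocytes were barely present. Krt7, the type II chain of ducts, on chromosome 15 from 101411043 to 101430313, had raw counts of 0, 0 and 1 in the p62+/+ mice and of 0, 1 and 0 in the p62S351E/+ mice. Krt19, the type I chain of ducts, on chromosome 11 from 100140810 to 100148665, had 0, 0 and 3 raw counts in the p62+/+ mice against 0, 1 and 1 in the p62S351E/+ mice. The ratio of p62S351E/+ to p62+/+ for Krt19, from counts summed over mice and scaled, was 0.943 with an exact 95% counting interval from 0.0788 to 8.23. For Krt7 the ratio was 1.41 with an interval from 0.0180 to 111. A change of several-fold in either direction was therefore not detectable at this depth, and such intervals cover counting error only.

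Epcam, an adhesion molecule of biliary and progenitor epithelium on chromosome 17 from 87635979 to 87651129, had a single raw count, in p62S351E/+ mouse 2. It was at 0 in all p62+/+ mice, which allows a level of up to 0.813 normalized counts there (3 counts over the group). Its level in the p62S351E/+ mice, 0.383 normalized counts from summed counts, lay under the corresponding limit of 1.15, so no fold is given.

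Sox9 and Prom1, genes of duct and progenitor identity, were present in every library at a few counts. Sox9, a transcription factor required for timely duct formation, lies on chromosome 11 from 112782224 to 112787760. It had raw counts of 4, 3 and 5 in the p62+/+ mice and of 3, 4 and 7 in the p62S351E/+ mice. Scaling turned these into 3.21, 2.33 and 4.32 against 5.71, 5.04 and 5.42 normalized counts. The scaled groups did not overlap while the raw counts did, so the separation rests on the scaling factors. The exact two-sided permutation test gave p = 0.1 (n = 3 each), its smallest value. The summed ratio was 1.65 with a counting interval from 0.709 to 3.91, which includes no change.

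Prom1, which encodes the membrane protein CD133, lies on chromosome 5 from 43993620 to 44102032. It had raw counts of 2, 4 and 1 in the p62+/+ mice and of 2, 1 and 2 in the p62S351E/+ mice. The ratio of 1.01 had a counting interval from 0.253 to 3.70, and the groups overlapped (exact permutation p = 0.7, n = 3 each).

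Spp1, which encodes the secreted phosphoprotein osteopontin, was the most abundant of the 7 duct and progenitor markers. It lies on chromosome 5 from 104435118 to 104441050. It had raw counts of 24, 94 and 86 in the p62+/+ mice and of 34, 22 and 21 in the p62S351E/+ mice. The normalized counts were 19.3, 73.0 and 74.3 in the p62+/+ mice and 64.7, 27.7 and 16.3 in the p62S351E/+ mice. In each genotype, mouse 1 stood apart from the other two, low among p62+/+ mice and high among p62S351E/+ mice, so the groups overlapped. The means were 55.5 ± 31.4 and 36.2 ± 25.3 normalized counts (SD, n = 3 each). Spp1 had a log2 fold change of -0.65 with a standard error of 0.68 (adjusted p = 0.65, edgeR). With the brain-gene level as a covariate it was -1.79 (adjusted p = 0.803, edgeR). It was -1.34 without p62S351E/+ mouse 1 (adjusted p = 0.536, edgeR) and -0.28 without p62S351E/+ mouse 3 (adjusted p = 0.8, edgeR). Spp1 made up between 44.4% and 83.2% of the summed raw counts of the 7 markers in a library, so a sum over them mainly follows Spp1.

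Anxa2, which encodes a calcium-dependent membrane-binding annexin found in ducts and in many non-parenchymal cells, lies on chromosome 9 from 69453620 to 69491795. Its raw counts were 24, 12 and 8 in the p62+/+ mice and 6, 5 and 10 in the p62S351E/+ mice. The normalized counts were 19.3, 9.32 and 6.91 against 11.4, 6.30 and 7.75, and the groups overlapped (exact permutation p = 0.6, n = 3 each). Tested without a filter on low counts, its log2 fold change was -0.54 with a standard error of 0.47 (adjusted p = 0.716, edgeR). With the filter on, Anxa2 passed when any 1 mouse was left out. Without p62+/+ mouse 1 its log2 fold change was then 0.04 with a standard error of 0.53 (adjusted p = 0.978, edgeR). Without any other single mouse it lay between -0.77 and -0.34. The ratio from summed counts was 0.675 with a counting interval from 0.381 to 1.16.

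**Figure D3:**
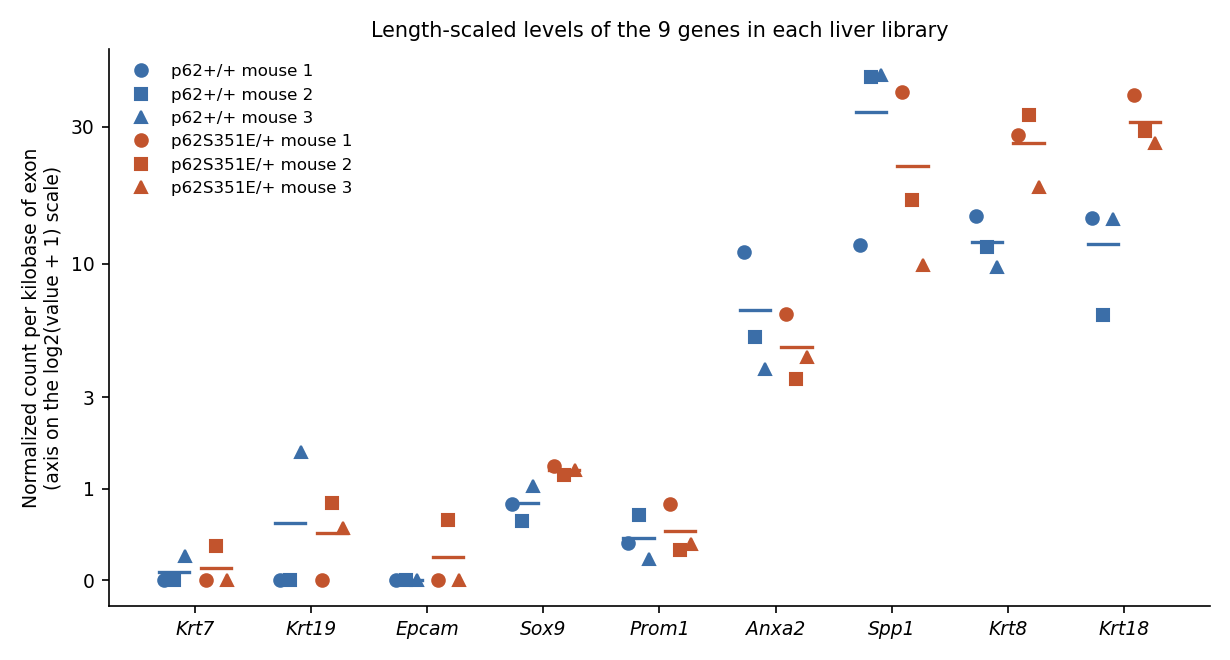
Normalized counts per kilobase of exon for the 9 genes, with the axis on the log2(value + 1) scale. Symbols are libraries and lines are group means of 3 mice. Spp1, Krt8, Krt18 and Anxa2 lie between 3.60 and 45.1, whereas the other 5 genes do not exceed 1.64.

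Levels of different genes were compared per kilobase of the union of their coding transcripts' exons. In p62+/+ mice, Spp1 came first with 33.7 normalized counts per kilobase, ahead of Krt8 with 12.0, Krt18 with 11.8 and Anxa2 with 6.77. The ranges of these neighbours overlapped, since Spp1 spanned 11.7 to 45.1, Krt8 9.70 to 14.8, Krt18 6.48 to 14.5 and Anxa2 3.95 to 11 per kilobase. In p62S351E/+ mice, Krt18 had 31.3, Krt8 26.5, Spp1 22.0 and Anxa2 4.86 normalized counts per kilobase. The first 3 overlapped there, and Anxa2, which reached 6.54 at most, lay below all of them. Sox9 lay below Anxa2 in both genotypes, with 0.795 and 1.30 normalized counts per kilobase, and Krt19, Prom1, Krt7 and Epcam had at most 0.548 on average. The ranges of Sox9, Krt19 and Prom1 overlapped in the p62+/+ mice, while in the p62S351E/+ mice Sox9 (1.22 to 1.38) lay above both.

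Other genes of bile ducts were also low in counts. Of 24 further duct genes, 4 (Slc10a2, Gpbar1, Muc1 and Mmp7) had 0 counts in all libraries, 12 did not exceed 3 counts in any library, these 4 included, and 7 passed the filter. By edgeR 0 of the 7 were called, 2 had a log2 fold change above 0, and their median was -0.10. Pkhd1, the fibrocystin gene of polycystic liver and kidney disease, had raw counts from 18 to 39 and a log2 fold change of -0.10 (adjusted p = 0.908, edgeR). Slc4a2, an anion exchanger that takes part in bicarbonate secretion, had 14 to 31 counts and a log2 fold change of -0.01 (adjusted p = 0.986, edgeR). Tm4sf4, Ggt1, Cdh1, Bicc1, Ddr1 and Pkd2 are named here because of their values. Cdh1 and Bicc1 did not pass the filter. Cdh1 had 8, 5 and 7 raw counts in the p62+/+ mice and 5, 11.18 and 19 in the p62S351E/+ mice. Bicc1 had 2, 2 and 1 against 5, 4 and 4. Their ratios from summed counts were 2.48 (counting interval from 1.39 to 4.53) and 3.68 (from 1.23 to 13.2), without a test across genes. Tm4sf4, a tetraspanin-like membrane protein gene, had 14, 9 and 8 against 7, 22 and 19 raw counts, with a log2 fold change of 1.14 (adjusted p = 0.267, edgeR). Ggt1, the gamma-glutamyltransferase gene, which degrades extracellular glutathione, was at 0 in all p62+/+ mice and had 4, 1 and 6 raw counts in the p62S351E/+ mice. Against a floor of 3 counts over the p62+/+ group, the ratio of Ggt1 from 11 summed counts was 5.19, without a test across genes. That value leaves out counting error in the 11 counts. The counting interval of the ratio had a lower limit of 3.55 and no upper limit. In the other direction, Ddr1, a collagen receptor gene, had 15, 5 and 22 raw counts against 0, 0 and 11, with a log2 fold change of -1.67 (adjusted p = 0.497, edgeR). Its libraries at 0 were those of p62S351E/+ mice 1 and 2, which had few brain transcripts, and the part of these in the value was not tested. Pkd2, the polycystin 2 gene, had 23, 17 and 24 raw counts against 10, 7 and 10, with a log2 fold change of -0.61 (adjusted p = 0.503, edgeR), and its normalized counts overlapped.

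The pathways that direct duct fate were measured at low counts, and edgeR called 0 of their genes. Of 11 Notch pathway genes, 3 passed the filter, with a median log2 fold change of 0.01. The receptor genes Notch2 (log2 fold change 0.27, adjusted p = 0.606, edgeR) and Notch1 (-0.07, adjusted p = 0.931, edgeR) were the most abundant of them. Jag1, the ligand whose loss causes paucity of bile ducts, had 7, 7 and 6 raw counts in the p62+/+ mice and 4, 1 and 5 in the p62S351E/+ mice, and is named for its role. Of 9 genes of the YAP and TAZ pathway, 5 were tested, with a median of 0.26. Yap1, the coactivator, had a log2 fold change of 0.40 (adjusted p = 0.605, edgeR) and Amotl2, a target and inhibitor of it, one of 0.26 (adjusted p = 0.677, edgeR).

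Of 8 genes of fetal hepatoblasts and injury progenitors, H19 passed the filter. This imprinted noncoding RNA had raw counts of 7, 13 and 9 in the p62+/+ mice and of 164, 43 and 65 in the p62S351E/+ mice, with a log2 fold change of 4.11 that was not called (standard error 0.89, adjusted p = 0.138, edgeR). The groups did not overlap, and H19 was called higher by DESeq2 (adjusted p = 1.1e-05) and by limma-voom (adjusted p = 0.0207). Gpc3, a fetal cell-surface proteoglycan gene that edgeR's filter left out, had 5, 4 and 1 raw counts against 9, 17 and 29, and DESeq2 called it higher (log2 fold change 2.90, adjusted p = 0.0176). It is named because of that call. In the other direction, Dlk1, named because of its values, had 7, 7 and 5 raw counts against 0, 0 and 2. Its ratio from summed counts was 0.149 with a counting interval from 0.0168 to 0.617, without a test across genes. Afp, the classical hepatoblast protein, had 1 count in each p62+/+ mouse and 0 in each p62S351E/+ mouse, and is named for its role. So is Tnfrsf12a, the TWEAK receptor of progenitor cells, with 2, 1 and 2 against 0, 0 and 1 counts.

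Genes whose proteins work with the members were followed as well. The 8 genes of keratin linkers and desmosomes had 6 tested members, all with a log2 fold change above 0, and a median of 0.63, whereas with library size as the only scaling 3 of the 6 were above 0 and the median was -0.04 (against -0.68 for all genes). By edgeR 0 were called, and the groups did not overlap on the higher side for 3 of the 6, against 12.0% of all genes. Dsp, the desmoplakin gene that anchors keratins to desmosomes, had a log2 fold change of 0.88 (adjusted p = 0.29, edgeR) and Plec, the plectin gene, one of 0.12 (adjusted p = 0.787, edgeR). Of 12 other keratin genes, 7 had 0 counts in all libraries and none passed the filter, so Krt8 and Krt18 were the only keratin genes of the lists with over 5 counts in any library.

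Of 11 annexins and S100 proteins, 5 were tested and 0 called, with a median log2 fold change of 0.26. Anxa5 had a log2 fold change of -0.82 (adjusted p = 0.284, edgeR) with lower normalized counts in every p62S351E/+ mouse. Anxa6 had one of 0.26 (adjusted p = 0.599, edgeR) with higher ones in every such mouse. So did Anxa4 (1.29, adjusted p = 0.23, edgeR) and Anxa7 (0.90, adjusted p = 0.293, edgeR), named because of their values. Groups that did not overlap were thus found for 3 of the 5 on the higher side and 1 on the lower, against 12.0% and 14.7% of all genes tested. S100a10, which encodes the light chain of the annexin A2 tetramer and is named for that role, had raw counts of 1, 3 and 4 in the p62+/+ mice and of 4, 15 and 11 in the p62S351E/+ mice. Of 7 osteopontin receptor genes, 4 were tested and 0 called, with a median of 0.30. Itgb1 and Itgav, the integrin chains most abundant among them, had log2 fold changes of 0.29 (adjusted p = 0.544, edgeR) and -0.34 (adjusted p = 0.546, edgeR).

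**Figure D4:**
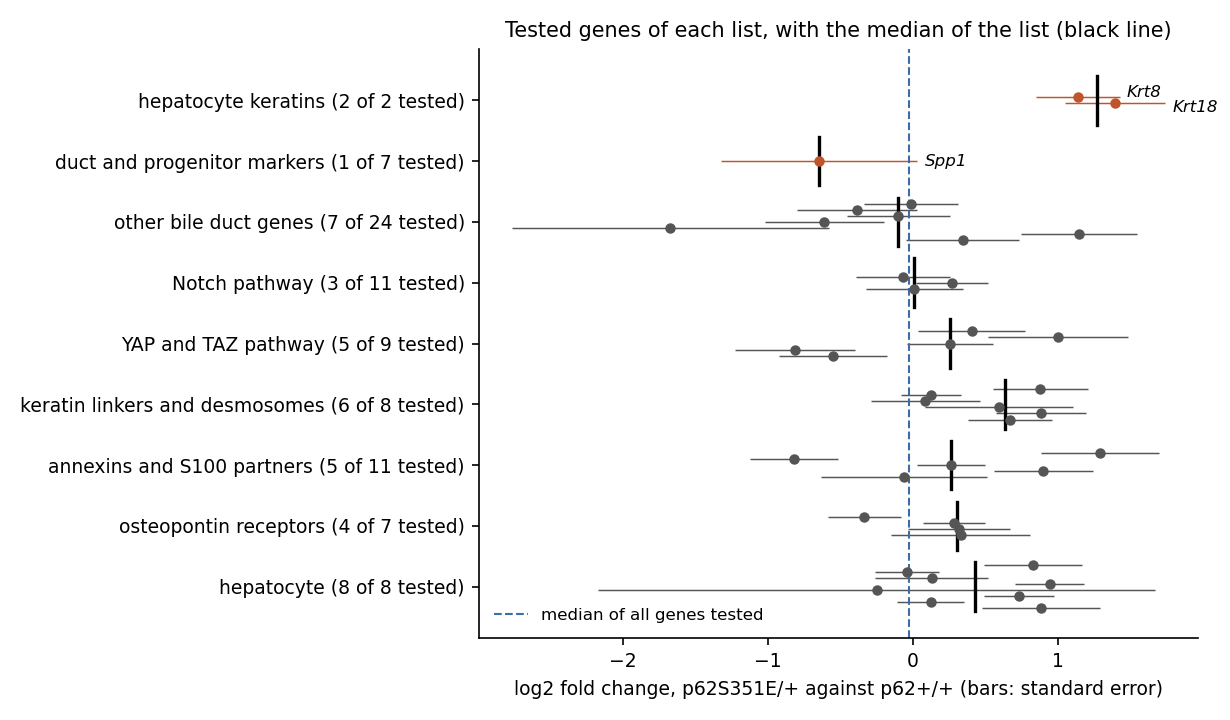
Log2 fold changes (p62S351E/+ against p62+/+) with standard errors of the tested genes of 9 of the lists, with the median of the list as a black line and the median of all genes tested, -0.03, as a dashed line. Krt8 and Krt18 lie at 1.14 and 1.39, and the keratin linkers and desmosome genes all lie above 0 with a median of 0.63 under TMM scaling, but 3 of 6 do with library size only.

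Other cells of or near the liver that express the same genes were checked by their markers. Of 9 macrophage markers, edgeR tested 5 and called 0 (median log2 fold change 0.21), and their summed normalized counts ranged from 115 to 127 in the p62+/+ mice and from 130 to 177 in the p62S351E/+ mice. Csf1r (0.21, adjusted p = 0.668, edgeR) and Lyz2 (0.61, adjusted p = 0.58, edgeR) were the most abundant of these. Lyz2 had 79.76 raw counts in p62S351E/+ mouse 3, against 10 and 13 in p62S351E/+ mice 1 and 2. Marco, a scavenger receptor gene of macrophages that edgeR's filter left out, had 1, 1 and 3 raw counts against 12, 10 and 22, and DESeq2 called it higher (log2 fold change 3.63, adjusted p = 0.0118). It too is named because of that call. Marco is part of the macrophage sum. Its normalized counts were 0.802, 0.776 and 2.59 in the p62+/+ mice and 22.9, 12.6 and 17.0 in the p62S351E/+ mice. In the p62S351E/+ mice this was more than the gap between the ranges of the sum, 127 to 130. Of 8 stellate cell and fibroblast markers, edgeR tested 4 and called 0 (median log2 fold change -0.96). Their summed normalized counts ranged from 152 to 274 in the p62+/+ mice and from 95.8 to 139 in the p62S351E/+ mice. Reln had a log2 fold change of 0.05 (adjusted p = 0.943, edgeR). Dcn, named because of its values, had one of -0.30 (adjusted p = 0.644, edgeR), and the groups overlapped for both. Col1a1 is named because of its values. It had 55, 11 and 19 raw counts in the p62+/+ mice and 4, 4 and 12 in the p62S351E/+ mice. Its log2 fold change was -1.62 (adjusted p = 0.292, edgeR). Col3a1, a fibrillar collagen gene, had one of -1.94 (adjusted p = 0.0513, edgeR), and was called lower by DESeq2 (adjusted p = 0.0274), limma-voom (adjusted p = 0.0209) and edgeR's legacy method (adjusted p = 0.0372). Col3a1 is part of the stellate cell and fibroblast sum. Its normalized counts were 86.7, 38.0 and 49.2 in the p62+/+ mice and 13.3, 12.6 and 18.6 in the p62S351E/+ mice. In the p62+/+ mice this was more than the gap between the ranges of the sum, 139 to 152. Like Anxa2, Col3a1 had its highest raw count in p62+/+ mouse 1 (108, against 49 and 57 in the other p62+/+ mice), and its part in the Anxa2 value was not tested. Of 7 endothelial markers, 4 were tested and 0 called, with summed normalized counts from 137 to 217 in the p62+/+ mice and from 141 to 209 in the p62S351E/+ mice. Stab2 (0.09, adjusted p = 0.905, edgeR) and Kdr (-0.03, adjusted p = 0.975, edgeR) were the most abundant.

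Markers of other epithelial and surface cells that express Krt19 or Epcam had few counts. Of 6 mesothelial markers, Wt1 was at 0 in all libraries, and only Gpm6a passed the filter. Gpm6a, a gene that neurons also express, had 62, 54 and 53 raw counts in the p62+/+ mice, 0 in p62S351E/+ mice 1 and 2 and 54 in mouse 3 (log2 fold change -1.57, adjusted p = 0.606, edgeR), which follows the brain genes. Of 9 markers of pancreas and intestine, 6 were at 0 in all libraries and their summed normalized counts lay between 0 and 3.45 in the p62+/+ mice and between 0.775 and 2.52 in the p62S351E/+ mice. The 4 neutrophil markers in the table summed to 0 in all p62+/+ mice and to at most 3.87 in the p62S351E/+ mice. The 4 erythroid markers summed to between 5.43 and 10.4 and between 3.81 and 21.4, with Alas2 at a log2 fold change of 0.16 (adjusted p = 0.919, edgeR). The 10 brain markers were all tested and 0 called, with a median of -1.44. Mbp, a myelin gene, had a log2 fold change of -1.74 (adjusted p = 0.673, edgeR). Over the related lists 7 of 31 tested genes were higher and 1 lower at an unadjusted p under 0.05 in edgeR, and over the cell type lists 3 of 33 were higher and 2 lower, against 9.02% and 5.55% of all genes tested.

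The genes whose profile over the 6 libraries was closest to each tested member were listed by the root mean square difference of log2(normalized count + 1), after each gene had been centred on its own mean. For Krt8 these were Masp1, Apob and Selenbp1, at 0.10, 0.10 and 0.11, against a spread of Krt8 itself of 0.62. For Krt18 they were Siae, C5ar1 and Fam13a, at 0.14, 0.15 and 0.17, against a spread of 0.81. Spp1 had no gene as close, with Brox at 0.45, Rev1 at 0.49 and Cstf2t at 0.50 against a spread of 0.89. Apob encodes the main protein of very low density lipoproteins. It had a mean of 1312 ± 149 normalized counts in the p62+/+ mice and of 2812 ± 809 in the p62S351E/+ mice (SD, n = 3 each). Mouse 3 of the p62S351E/+ group, at 1963, was closest to the p62+/+ mice. Because Apob was picked for its closeness to Krt8 in these same libraries, this likeness follows from the choice and is no separate observation.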

How the data were processed

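Liver RNA of 3 p62+/+ and 3 p62S351E/+ mice was depleted of ribosomal RNA, and 75-base single-end reads were mapped to mm10 by the authors with STAR. The authors deposited estimated counts per gene from RSEM, without normalization, and Trim Galore is named in the submitters' processing notes. Versions and the gene annotation are not given in the sources used here. Fractional counts made up 6.45% of the values above 0, and the table was rounded for testing. Groups came from the sample titles. The members and lists were chosen with earlier results of these data known.

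Testing was done in R 4.3.3 with DESeq2 1.42.0, limma 3.58.1 and edgeR 4.0.16. Low genes were removed with filterByExpr (minimum count 10), scaled by TMM and tested by edgeR's quasi-likelihood method (legacy set to FALSE, robust). Adjustment was by Benjamini-Hochberg over the 5945 genes left. Standard errors were obtained as |log2 fold change| over the root of the F statistic. Members left out by the filter were given by raw counts, an exact permutation test of normalized counts (SciPy 1.17.1) and exact Poisson-based 95% intervals. DESeq2 was run on all genes with at least 1 count. The tests were checked on simulated counts. Genes named were all members, list genes that edgeR called, the 2 most abundant tested genes of each list, duct genes at 0 throughout and the 3 closest profiles of each tested member; others are said to be named for their role or values. Lengths and positions are those of GENCODE M21 (GRCm38, the build of mm10), promoters those of RefSeq. Of the 9 members, 7 had a promoter sequence in that table. Ly6g and Epb42 of the marker lists were not matched in the count table. Same-numbered mice are different animals. Some genes of the lists are not reported here by name.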

Additional observations from a re-analysis of the deposited data

How the results depend on the processing

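Krt8 and Krt18 stayed higher and Spp1 stayed lower in p62S351E/+ mice under all 20 alternatives, and their sizes ranged from 0.39 to 1.34, from 0.66 to 1.57 and from -1.79 to -0.28 on the log2 scale, with adjusted p from 0.0034 to 0.837, from 0.00919 to 0.593 and from 0.417 to 0.952. Krt8 was called under 1 alternative and Krt18 under 3. The lowest keratin values, with library size as the only scaling, go with a median of all genes of -0.68. Relative to it Krt8 was 1.07 and Krt18 1.34, but scaling shifts all genes nearly alike, so this is no separate check. The number of members called higher, 0 with all 6 mice, was 1 with limma-voom and 1 with at least 10 counts in every library, in each case Krt18, and from 0 to 2 with each mouse left out, the 2 being Krt8 and Krt18 without p62S351E/+ mouse 3. The number called lower was 0 throughout.

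Over all genes, 50 were called higher and 5 lower. The higher number was 122 with limma-voom, 12 with library size only, 79 without a filter, 18 with the replicate block, 30 with the brain covariate, 27 with the Xist covariate, 18 with an adjusted p below 0.01 and 18 with scaling to hepatocyte markers. The lower number was 8 with DESeq2, 13 with limma-voom, 8 with the legacy method, 2 with library size only, 10 without a filter, 29 with at least 10 counts in every library, 1 with the replicate block, 2 with either covariate, 23 without p62S351E/+ mice 1 and 2, and 1 with an adjusted p below 0.01. With each mouse left out, the higher number ran from 16 to 333 and the lower from 1 to 975, both maxima without p62S351E/+ mouse 3. The causes were not tested. The deviations of same-numbered mice correlated between -0.09 and 0.08, so no pairing by number was visible. A shared litter or batch was not tested by this. The block changed no call on a member. Scaling to hepatocyte markers was chosen after the data had been seen.

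Depth limits Krt7, Krt19 and Epcam most, with at most 3 raw counts in any library. For Krt7, Krt19, Sox9 and Prom1 changes within the counting intervals given were not detectable, and Epcam was too low for a fold. The libraries differ in brain transcripts and Xist, and these cannot be told apart from genotype in p62S351E/+ mice 1 and 2.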
